A study of Homo sapiens with 12 samples.

Results

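Apolipoproteins are the protein part of lipoprotein particles, and 10 of their genes were followed here across both cell lines and both siRNAs: APOA1, APOA2, APOA4, APOB, APOC1, APOC2, APOC3, APOE, APOH and APOM. The genes were taken by name from the 20499 genes that the array's RefSeq transcripts could be matched to. They were read by 12 probes, because APOA1 and APOM each had 2. HA22T and PLC5 are human hepatocellular carcinoma (HCC) lines. Each was transfected for 48 hours with 10 nM of a non-targeting siRNA (siControl) or of a pool of siRNAs against GALNT1 (siGALNT1), the enzyme that begins mucin-type O-glycosylation, and no group was left untransfected. Total RNA was hybridized to one-colour Agilent arrays, 3 arrays for each of the 4 groups, HA22T siControl, HA22T siGALNT1, PLC5 siControl and PLC5 siGALNT1. Each line stands for 1 tumor, and nothing states that the triplicates came from separate cultures, so the p-values measure the spread between these arrays, which may be technical.

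In the liver, hepatocytes build very low density lipoprotein around APOB and secrete most of the proteins that high density lipoprotein (HDL) is made from. The exchangeable apolipoproteins move between particles in plasma, where they activate or inhibit lipases and dock particles on receptors. Several of these genes lie side by side, in 1 cluster on chromosome 11 that holds APOA4, APOC3 and APOA1 and another on chromosome 19 that holds APOE, APOC1 and APOC2. Transcription factors of the hepatocyte, such as HNF4A, are known to act on many of their promoters.

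The stretch of 250 bases before the start site is shown for 4 members. APOA2 had the largest difference between the lines with siControl, APOA4 was the member whose difference did not pass the test, and APOC2 and APOM are the members in which 1 of the searched motifs was found. Each sequence runs 5′ to 3′ on the gene's own strand, from RefSeq on GRCh38.p14, in lower case with a motif match in capitals. APOA2 lies on the minus strand at chr1:161223629-161223878, APOA4 on the minus strand at chr11:116823305-116823554, APOC2 on the plus strand at chr19:44945801-44946050 and APOM on the plus strand at chr6:31655644-31655893.
APOA2: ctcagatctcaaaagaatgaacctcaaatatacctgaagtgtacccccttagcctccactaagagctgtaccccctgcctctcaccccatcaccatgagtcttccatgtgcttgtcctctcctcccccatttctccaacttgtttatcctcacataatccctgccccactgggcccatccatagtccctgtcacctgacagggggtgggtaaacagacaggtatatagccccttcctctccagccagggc
APOA4: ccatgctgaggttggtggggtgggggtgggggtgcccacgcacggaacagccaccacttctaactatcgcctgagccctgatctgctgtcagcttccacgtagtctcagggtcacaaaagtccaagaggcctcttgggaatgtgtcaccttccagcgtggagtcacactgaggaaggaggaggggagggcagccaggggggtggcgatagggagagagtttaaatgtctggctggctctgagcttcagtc
APOC2: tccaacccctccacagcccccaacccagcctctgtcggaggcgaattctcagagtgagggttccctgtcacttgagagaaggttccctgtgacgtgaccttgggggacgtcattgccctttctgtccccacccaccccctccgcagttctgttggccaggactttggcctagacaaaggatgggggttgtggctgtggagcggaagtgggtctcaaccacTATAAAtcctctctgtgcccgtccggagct
APOM: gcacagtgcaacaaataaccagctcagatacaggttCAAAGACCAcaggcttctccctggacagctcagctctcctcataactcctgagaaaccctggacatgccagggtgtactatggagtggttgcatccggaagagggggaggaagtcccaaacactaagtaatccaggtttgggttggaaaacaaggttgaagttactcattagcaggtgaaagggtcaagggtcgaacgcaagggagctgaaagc

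Promoters were in the table for 7 members (9 start sites), and APOA1, APOB and APOC3 had no entry. The motifs searched on both strands included an HNF4 element (CAAAGNNCA), a C/EBP element (TTNNGCAAT) and the TATA box (TATAAA). Among the members, the TATA box was found in APOC2, starting 30 bases before the start site, and the HNF4 element in APOM, starting 214 bases before it. Neither the HNF1 nor the C/EBP element was found in a member. Over 35116 promoters of the same length, the TATA box was present in 10.7% and the HNF4 element in 4.44%. The C/EBP element was present in 2.04% and the HNF1 element in 0.723%. A match is a run of letters in this window and not evidence of binding.

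Levels are given as log2 of the processed spot signal minus the 75th percentile of the same array, so 0 is the signal at that percentile, and a difference of 1 is a doubling. Levels of different probes were not set against each other, since probes differ in how brightly they report. A spot is called well above background by the scanner software's own test, and 36679 to 48873 of 58717 spots passed it on an array. A probe was counted in a comparison when it passed on at least 3 of the 6 arrays. GALNT1 was checked first. Its brighter probe had a level of 0.97 ± 0.30 (SD, n = 3) in HA22T siControl and −4.13 ± 1.26 in HA22T siGALNT1, where it was well above background on 2 of the 3 arrays. In PLC5 it was 0.62 ± 0.25 and −3.10 ± 1.04. All siGALNT1 arrays lay below all siControl arrays of their line on both GALNT1 probes. Across all probes the limma adjusted p of this probe was 0.0708 in HA22T (0.037 with the replicate number as a block) and 1 in PLC5, and that of the dimmer probe was 0.0305 and 1.

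**Figure D1:**
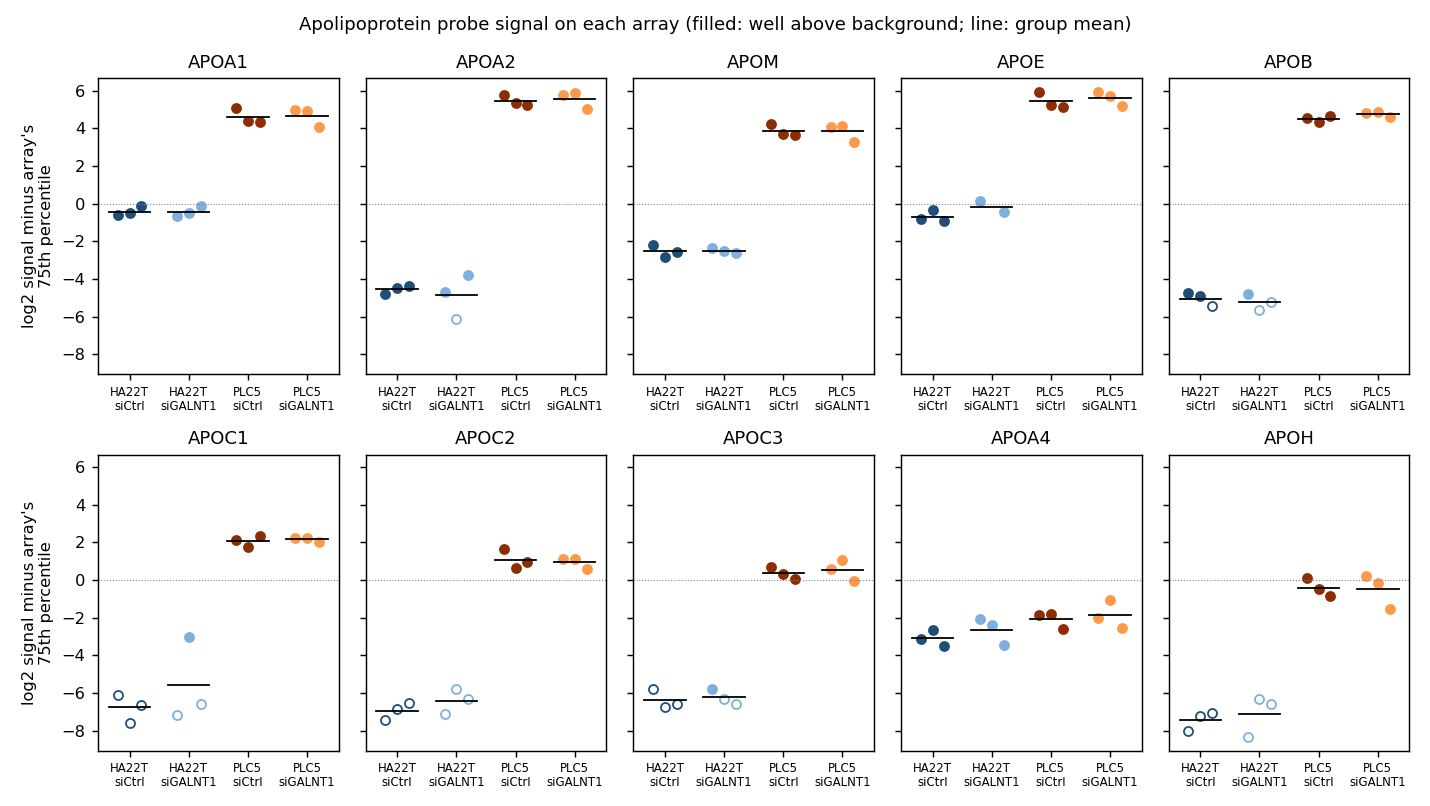
Level of each apolipoprotein on each array (vertical axis: log2 signal minus the array's 75th percentile), by group, with replicates 1 to 3 from left to right. Filled points were well above background, open points were not, and black lines are group means. In 9 of the 10 panels every PLC5 point lies above every HA22T point, and the siGALNT1 points overlap the siControl points of the same line in each panel.

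With siControl, 9 of the 10 members were higher in PLC5 than in HA22T with an adjusted p below 0.05, and APOA4 was not called. Over the 6 members above background in both lines the log2 differences had a median of 6.25, from 1.01 for APOA4 to 10.01 for APOA2, and over all 10 the median was also 6.25 with the unmeasured members at their lower bound (fitted values gave 6.88). Over all 38006 counted probes it was −0.04. Of all counted probes, 11.0% were called higher in PLC5. For all 10 members every PLC5 array was above every HA22T array, as for 19.3% of probes tested for it. With siGALNT1 in both lines, the same 9 members were called, with a median of 6.08 over the 10 with members at their bound (6.67 for fitted values) and a range of 0.77 to 10.42, against 13.1% of 36738 probes. There 9 of the 10 did not overlap, against 20.8% of probes. Bulk RNA cannot tell fewer expressing cells from less RNA per cell.

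Not every member could be measured in HA22T. APOC1, APOC2, APOC3 and APOH were not well above background on any HA22T siControl array, so they were counted only through PLC5, where they are high, and their inclusion in the 9 is not independent of their direction. Among probes well above background on all 6 siControl arrays, 9.99% were called higher in PLC5, and 4 of the 5 such members were (APOA1, APOA2, APOE and APOM). With siGALNT1 that share was 11.5% and 2 of 3 such members were called (APOA1 and APOM). Under another scaling, the share of called probes that were higher in PLC5 with siGALNT1 moved from 57.2% to 45.2% (quantile normalization) and to 40.8% (a percentile without flagged spots).

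**Figure D2:**
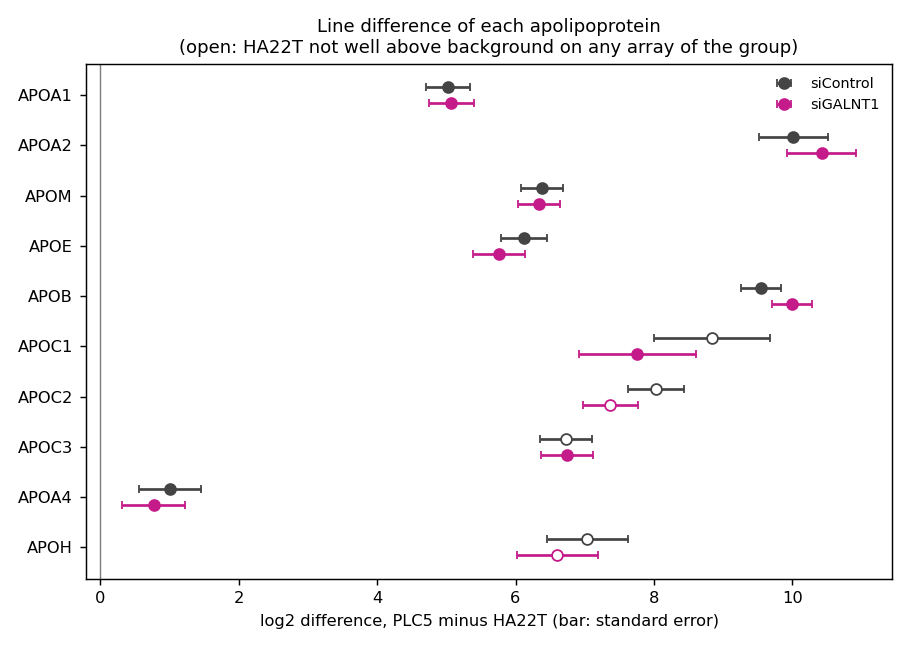
Log2 difference of each member, PLC5 minus HA22T (horizontal axis), with its standard error as a bar, for the siControl and the siGALNT1 arrays. Open points mark members not well above background on any HA22T array of that group. All but APOA4 lie between 5.03 and 10.42, and APOA4 lies at 1.01 and 0.77.

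Wherever their spot was not flagged, APOA1, APOE, APOM and APOA4 were well above background on every array of both lines. APOA1, the scaffold of HDL and the activator of LCAT, had levels of −0.60, −0.51 and −0.12 on the 3 HA22T siControl arrays and of −0.63, −0.50 and −0.12 on the HA22T siGALNT1 arrays. In PLC5 the levels were 5.08, 4.42 and 4.34 with siControl and 4.96, 4.92 and 4.08 with siGALNT1. The lowest PLC5 array was 4.20 above the highest HA22T array, while the 6 arrays spanned 0.51 in HA22T and 1.00 in PLC5. The line difference was 5.03 ± 0.32 (SE, 32.6-fold, adjusted p = 1.05e-06) with siControl and 5.07 ± 0.32 (33.7-fold, adjusted p = 1.07e-06) with siGALNT1. The other APOA1 probe gave 5.35 and 5.00.

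APOA2, the second structural protein of HDL, had levels of −4.79, −4.49 and −4.39 in HA22T siControl and of −4.66, −6.12 and −3.77 in HA22T siGALNT1. In PLC5 they were 5.79, 5.34 and 5.24 with siControl and 5.77, 5.90 and 5.04 with siGALNT1. The PLC5 arrays lay close together, and the widest spread was among the HA22T siGALNT1 arrays, where replicate 2 was not well above background. The line difference was 10.01 ± 0.49 (1034-fold, adjusted p = 2.32e-07) with siControl and 10.42 ± 0.49 (1370.4-fold, adjusted p = 1.74e-07) with siGALNT1. Without HA22T siGALNT1 replicate 2 the latter was 9.79.

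APOM, a lipocalin that rides on HDL and carries sphingosine-1-phosphate, had levels of −2.18, −2.82 and −2.54 in HA22T siControl and of −2.37, −2.51 and −2.62 in HA22T siGALNT1. In PLC5 its levels were 4.23, 3.73 and 3.64 with siControl and 4.10, 4.14 and 3.29 with siGALNT1. Neither line overlapped the other, and the difference was 6.38 ± 0.30 (83.2-fold, adjusted p = 1.67e-07) with siControl and 6.34 ± 0.30 (81.2-fold, adjusted p = 1.74e-07) with siGALNT1. Its other probe gave smaller differences of 5.29 and 5.04, in the same direction.

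APOE, a ligand for the uptake of remnant particles by the liver, had levels of −0.83, −0.33 and −0.91 in HA22T siControl. Its spot was flagged as non-uniform on HA22T siGALNT1 replicate 2 and left out, and the other 2 arrays of that group gave 0.17 and −0.46. In PLC5 it stood at 5.94, 5.23 and 5.12 with siControl and at 5.92, 5.72 and 5.21 with siGALNT1. All PLC5 arrays were far above the HA22T arrays, by 6.12 ± 0.33 (69.8-fold, adjusted p = 8.21e-07) with siControl and by 5.76 ± 0.37 (54.3-fold, adjusted p = 2.75e-06) with siGALNT1.

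APOB is the structural protein of very low and low density lipoprotein and stays with its particle for life. Its probe is printed in 10 spots on each array, which were averaged. It had levels of −4.77, −4.89 and −5.44 in HA22T siControl and of −4.77, −5.66 and −5.21 in HA22T siGALNT1, and was well above background on 2 and on 1 of these arrays. In PLC5 it was at 4.56, 4.34 and 4.65 with siControl and at 4.84, 4.88 and 4.61 with siGALNT1. The PLC5 arrays spanned only 0.54, the narrowest range among the members together with APOC1. The line difference was 9.55 ± 0.29 (749.55-fold, adjusted p = 1.87e-08) with siControl and 9.99 ± 0.29 (1019-fold, adjusted p = 1.09e-08) with siGALNT1, the smallest adjusted p of any member in either comparison. With so few HA22T arrays above background, the fold rests on a faint signal on that side.

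The C apolipoproteins tune the lipolysis and uptake of triglyceride-rich particles. APOC1, which inhibits lipoprotein uptake and CETP, had levels of −6.08, −7.57 and −6.63 in HA22T siControl, none well above background. In HA22T siGALNT1 they were −7.15, −3.04 and −6.60, and replicate 2 alone was above background, far over the other 2 arrays of its group. Of the 12 arrays, this replicate had the fewest spots well above background (36679) and the most non-uniform spots (3633). In PLC5 APOC1 was at 2.11, 1.78 and 2.32 with siControl and at 2.24, 2.22 and 2.04 with siGALNT1. PLC5 was at least 197-fold higher with siControl, where the HA22T side was set at the faintest level that still counts as above background on each array (fitted difference 8.83 ± 0.84, adjusted p = 1.95e-05). With siGALNT1 the fitted difference was 7.76 ± 0.84 (adjusted p = 5.48e-05), with APOC1 measured on 1 of the 3 HA22T arrays. It was 6.69 with the other HA22T arrays at that floor, 9.04 without the array that measured it, and 6.98 and 7.26 without HA22T siGALNT1 replicate 1 or 3.

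APOC2, the cofactor that lipoprotein lipase needs, was not well above background on any of the 6 HA22T arrays, where its signal was between −7.44 and −5.80. In PLC5 its levels were 1.66, 0.62 and 0.97 with siControl and 1.14, 1.14 and 0.59 with siGALNT1. PLC5 was at least 99.3-fold higher with siControl (fitted difference 8.03 ± 0.40, adjusted p = 2.35e-07) and at least 56.7-fold higher with siGALNT1 (fitted difference 7.37 ± 0.40, adjusted p = 4.3e-07). RefSeq also lists a readthrough transcript of APOC4 and APOC2, which this probe may not tell from APOC2.

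APOC3, an inhibitor of lipolysis and of remnant clearance, was well above background on 1 of the 6 HA22T arrays, where its signal was between −6.72 and −5.76. In PLC5 it was at 0.71, 0.34 and 0.08 with siControl and at 0.57, 1.08 and −0.06 with siGALNT1. The separation between the lines was 5.70. PLC5 was at least 61.0-fold higher with siControl (fitted difference 6.73 ± 0.37, adjusted p = 4.67e-07). With siGALNT1 the fitted difference was 6.75 ± 0.37 (adjusted p = 5.15e-07), and 5.28 with the HA22T arrays that did not measure it at their floor.

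APOH, also known as beta-2-glycoprotein I, is a plasma protein that binds anionic phospholipid and is the main target of antiphospholipid antibodies. Its signal was between −8.34 and −6.32 on the HA22T arrays and was well above background on none. In PLC5 it was at 0.12, −0.47 and −0.85 with siControl and at 0.24, −0.17 and −1.53 with siGALNT1, the widest range in PLC5 of any member (1.76). PLC5 was at least 35.5-fold higher with siControl (fitted difference 7.03 ± 0.58, adjusted p = 6.97e-06) and at least 20.9-fold higher with siGALNT1 (fitted difference 6.60 ± 0.58, adjusted p = 1.22e-05).

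APOA4, which is made mainly by the intestine and travels on chylomicrons and HDL, was the member with the smallest line difference. Its levels were −3.11, −2.64 and −3.51 in HA22T siControl and −2.09, −2.41 and −3.42 in HA22T siGALNT1, all well above background. In PLC5 they were −1.85, −1.80 and −2.58 with siControl and −1.99, −1.08 and −2.54 with siGALNT1. With siControl the lowest PLC5 array stood just above the highest HA22T array, and with siGALNT1 the lines overlapped. The difference was 1.01 ± 0.45 (2.01-fold, adjusted p = 0.147) with siControl and 0.77 ± 0.45 (1.71-fold, adjusted p = 0.25) with siGALNT1. With the replicate number as a block the siControl difference passed, with an adjusted p of 0.027, but HA22T and PLC5 arrays of 1 number did not deviate together at all 3 numbers.

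An exact permutation test of the mean line difference, with line labels permuted within each siRNA over 400 arrangements, can give no two-sided p below 0.005. That exact value was reached by 8 of the 9 members that had a level on every array, and APOA4 gave an exact p = 0.03 (APOE, with a missing array, was not tested). Any gene whose lines are fully separated with both siRNAs gives the smallest value, so this test adds nothing to the separation given above. APOC1, APOC2, APOC3 and APOH were moreover counted through PLC5, where they are high. The share of all probes that reach this value was not computed. Every PLC5 array was above every HA22T array for 19.3% of probes with siControl and 20.8% with siGALNT1. A comparison of 3 arrays against 3 cannot go below an exact p of 0.1.

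The arrays came from 2 slides. The first held the whole HA22T set together with PLC5 siControl and siGALNT1 replicate 1, and the other held PLC5 replicates 2 and 3. In PLC5 siControl, the array of the first slide was above the mean of the other slide for all 10 members, by 0.05 (APOC1) to 0.86 (APOC2). In PLC5 siGALNT1 it was above for 9, by up to 1.09 (APOH), and lower for APOA4. Within the first slide alone the line differences were 5.49 for APOA1, 10.35 for APOA2, 9.59 for APOB and 6.63 for APOE with siControl, as large as over all arrays. The same 9 members were called in the siControl comparison when the PLC5 arrays of the second slide were left out, against 4.44% of probes called higher. That comparison has 1 PLC5 array, which is assumed to vary like the other groups. Among the 6 PLC5 arrays, siGALNT1 replicate 3 was the lowest for 6 of the 10 members (median deviation −0.52), and it was the lowest for 18.9% of all probes above background.

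After siGALNT1 no member was called, as for nearly all probes. The brighter GALNT1 probe itself, at −5.10 in HA22T and −3.72 in PLC5, was not called in the main fit. A missing call therefore does not show that a member was unchanged. In HA22T, 6 members were counted and limma called none of them, nor did any have an unadjusted p below 0.05, as 1086 of 36321 probes did. Over all probes 0.00275% were called. The log2 differences, siGALNT1 minus siControl, had a median of 0.0035 over the 6 counted members, from −0.30 (APOA2) to 0.54 (APOE), against −0.06 over all counted probes. The other 4, at or near background, gave fitted values of 0.13 to 1.17. The siGALNT1 and siControl arrays overlapped for all 10, while they did not overlap for 8.83% of probes. By replicate number, read here as pairing the HA22T arrays, siGALNT1 was above siControl in 3 of 3 pairs for APOA4 and 2 of 2 for APOE. It was above in 1 or 2 of 3 for the other counted members. None was called with the replicate block, which gives both lines the same shift at each replicate number. A fit that paired the HA22T arrays alone was not run. The other APOA1 probe differed by 0.37 ± 0.31 in HA22T, higher in 3 of 3 pairs. The other APOM probe differed by 0.32 ± 0.32, higher in 2 of 3, and neither was called.

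In PLC5 all 10 members were counted and again none was called by limma or had an unadjusted p below 0.05, as for 0% of all probes (508 had an unadjusted p below 0.05). The differences had a median of 0.10, from −0.13 (APOC2) to 0.26 (APOB), against 0.01 over all counted probes. The standard errors of the members were 0.29 to 0.84. No member's groups separated, against 4.11% of probes.

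Some members are given with their values, although none was called. APOE in HA22T differed by 0.54 ± 0.37 (adjusted p = 1) over 3 and 2 arrays, and in PLC5 by 0.18 ± 0.33. APOA4 differed by 0.45 ± 0.45 in HA22T and by 0.21 ± 0.45 in PLC5. APOB differed by −0.18 ± 0.29 in HA22T and by 0.26 ± 0.29 in PLC5. The APOC1 value in HA22T (1.17 ± 0.84) was not counted, since 1 of its 6 arrays was above background, and without that array it was −0.11. The difference of the siGALNT1 change between PLC5 and HA22T was also called for no member (0% of 39098 probes; 952 had an unadjusted p below 0.05, and no member did), from −1.08 for APOC1 to 0.44 for APOB. For every member both PLC5 group means were above both HA22T group means, and the siControl and siGALNT1 arrays of each line overlapped. The line comparisons and the siRNA comparisons share arrays, so they are not independent of each other.

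**Figure D3:**
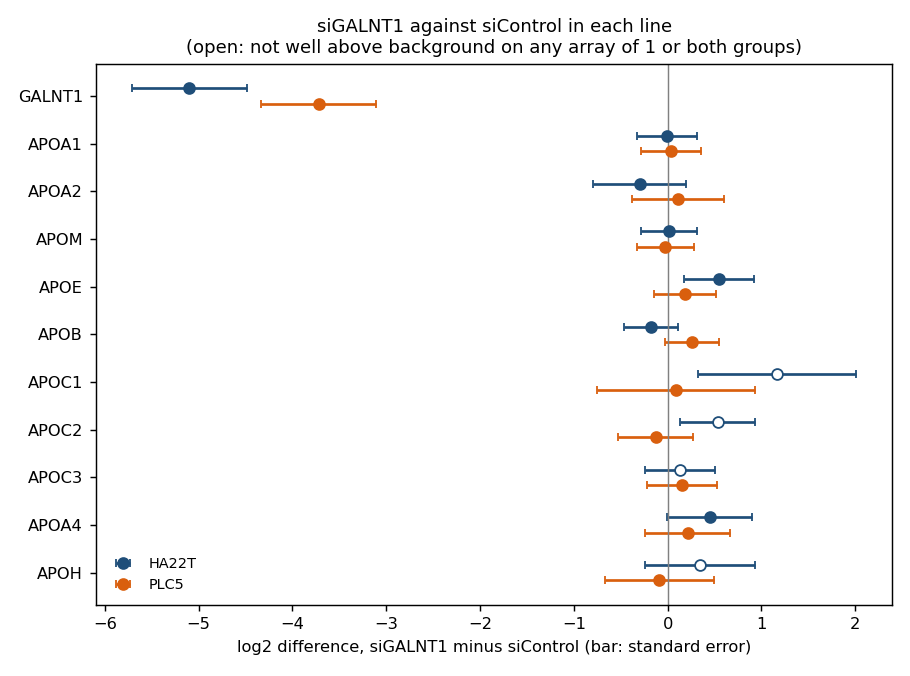
Log2 difference, siGALNT1 minus siControl (horizontal axis), with its standard error as a bar, for GALNT1 and each member in HA22T and PLC5. Open points mark members not well above background on any array of 1 or both groups. GALNT1 lies at −5.10 and −3.72, and the members lie between −0.30 and 1.17.

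The members were also set beside their neighbours on the chromosome. On chromosome 19, APOE, APOC1 and APOC2 differed by 6.12, 8.83 and 8.03 with siControl, while APOC4, which lies between APOC1 and APOC2, differed by −0.01 ± 0.32 (adjusted p = 0.988). TOMM40, the mitochondrial import channel next to APOE, differed by −0.12 ± 0.40, and the 6 genes beside this cluster had no adjusted p below 0.05. On chromosome 11, APOC3 and APOA1 differed by 6.73 and 5.03, and APOA4 and APOA5 by 1.01 and 1.00 without passing the test. Of the 6 genes beside that cluster, SIDT2 was called higher in PLC5 (2.27 ± 0.41, adjusted p = 0.00202). Around all members together, 30 of 32 neighbouring genes with a probe were counted, 7 were called higher and 1 lower, and their median was 0.23. Over all 38006 counted probes, 11.0% were called higher and 4189 probes lower, with a median of −0.04.

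**Figure D4:**
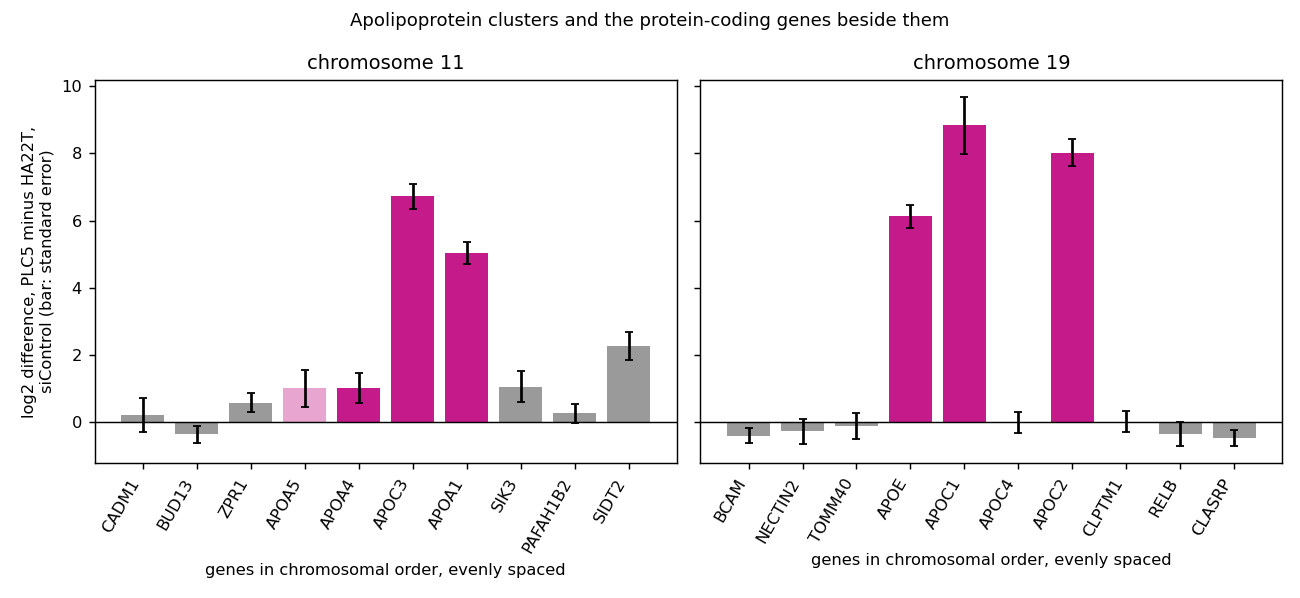
Log2 difference with siControl, PLC5 minus HA22T (vertical axis), with its standard error, of the apolipoprotein clusters of chromosomes 11 and 19 and the 3 protein-coding genes on each side, evenly spaced in chromosomal order. Dark bars are the members, the light bar is APOA5 and grey bars are other genes, and the bars of APOC4 and CLPTM1 are too short to see at −0.01 and 0.01. The bars of APOC1, APOC2 and APOC3 are fitted values against a HA22T signal not above background.

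Other parts of the lipoprotein pathway were followed through 6 lists with 102 genes in all, and in each list the 3 genes with the largest line difference called with both siRNAs are given. No gene of these lists was called after siGALNT1 in either line, as for nearly all probes. Over all 38006 counted probes, 4176 (11.0%) were called higher in PLC5 with siControl and 4189 lower. The counts of each list stand beside these shares and were not tested against them. For the assembly and secretion of lipoproteins, 13 of 13 genes were counted, 4 were called higher and 1 lower in PLC5 with siControl, with a median of −0.0036. MTTP, the transfer protein that loads lipid onto nascent APOB, was not well above background on any HA22T array and stood at 1.46 ± 0.34 in PLC5 siControl (SD, n = 3), at least 129-fold higher. CIDEB, a lipid droplet protein involved in lipid loading, differed by 4.28 ± 0.44 (adjusted p = 3.57e-05), and TM6SF2, which acts in the same pathway, by 1.64 ± 0.23 (adjusted p = 0.000384). SAR1B and SURF4, of the general export machinery, differed by −0.12 and −0.04 and were not called.

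Among lipases, transfer proteins and enzymes, 12 of 17 genes were counted, 7 were called higher and 2 lower, with a median of 1.33. LIPC, hepatic lipase, was not above background in HA22T siControl and was at least 123-fold higher in PLC5. PON3, a paraoxonase carried on HDL, differed by 5.79 ± 0.42 (adjusted p = 2.76e-06), and ANGPTL4, an inhibitor of lipoprotein lipase, by 4.93 ± 0.61 (adjusted p = 0.000139), measured on 2 of the 3 HA22T siControl arrays. LCAT, which APOA1 activates, was lower in PLC5 (−1.65, adjusted p = 0.00538) with siControl and was not called with siGALNT1 (−0.94, adjusted p = 0.0764). This contrast between the siRNAs is the difference of the siGALNT1 change between PLC5 and HA22T. It was not called for LCAT, as for all 39098 probes.

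Of 19 lipoprotein receptors and their partners, 16 were counted, 2 were called higher and 2 lower, with a median of −0.05. These shares are near those of all counted probes (4176 higher and 4189 lower of 38006). LSR, the lipolysis-stimulated receptor, was higher by 4.81 ± 0.44 (adjusted p = 1.48e-05) and SDC1, a heparan sulfate proteoglycan, by 2.35 ± 0.26 (adjusted p = 6.38e-05). HSPG2, perlecan, differed by −1.58 ± 0.36 (adjusted p = 0.00777). LRP1 differed by 0.01 (adjusted p = 0.984). Of 6 counted cholesterol transporters, 2 were called higher and 2 lower, with a median of 0.37. NPC1L1, which takes up cholesterol, was higher by 4.04 ± 0.50, and ABCG1, which exports it to HDL, by 2.83 ± 0.39, with 1 and 2 of the HA22T siControl arrays above background. NPC2, of the lysosome, differed by −1.34 ± 0.27 (adjusted p = 0.00387).

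Other apolipoproteins were called in both directions, as were all counted probes (4176 higher and 4189 lower of 38006). Of 15 counted among 17, 3 were called higher and 3 lower with siControl, with a median of −0.38. SAA1, an acute phase apolipoprotein of HDL, went the other way, with a level of 3.03 ± 0.12 in HA22T siControl against a PLC5 signal not well above background, and was at least 364-fold lower in PLC5. Its transcript is nearly identical to that of SAA2, which the probe may also detect. SAA4, the constitutive member of that family, was higher in PLC5 by 5.12 ± 0.37 (adjusted p = 2.62e-06, with 1 HA22T siControl array above background) and APOOL, a protein of the mitochondrial inner membrane, by 2.16 ± 0.31 (adjusted p = 0.000394).

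Among the regulators of apolipoprotein genes, 27 of 28 were counted, 10 were called higher and 3 lower in PLC5 with siControl, with a median of 0.46. PROX1, a homeobox factor of liver development, was not above background in HA22T and was at least 61.4-fold higher in PLC5. FOXA2, a pioneer factor of the liver, was higher by 6.85 ± 0.44 (adjusted p = 1.19e-06), and NR1H4, the bile acid receptor, by 6.03 ± 0.38 (adjusted p = 1.05e-06), each with 1 HA22T siControl array above background. HNF4A, also counted among the hepatocyte markers, was higher by 3.24 ± 0.43 (adjusted p = 0.000211), whereas FOXA1 and FOXA3 differed by 0.65 and 0.20 and were not called. The 3 called lower were SREBF1 (−3.315 ± 0.41, adjusted p = 0.000137), NR2F1 (−2.40 ± 0.42, adjusted p = 0.00162) and RXRA (−1.65 ± 0.39, adjusted p = 0.0115).

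Markers of the hepatocyte moved with the line as well. Over all 38006 counted probes, 11.0% were called higher in PLC5 with siControl and 4189 probes lower. Of the 10 such markers 8 were called higher in PLC5 and none lower, with a median of 3.60, among them ALB (3.96, adjusted p = 0.000101) and SERPINA1 (5.69, adjusted p = 3.21e-06), while HP and CYP3A4 differed by −0.09 and −0.04. Summed as linear multiples of the 75th percentile, the 9 of these markers with a value on every array came to 2.46 to 2.81 on the HA22T siControl arrays and 54.5 to 107 on the PLC5 siControl arrays. Such sums add probes that differ in brightness and serve only to compare arrays. SERPINA1 (5.77 ± 0.54 in PLC5 siControl, SD, n = 3) weighed most in the PLC5 sums. In the sums of mesenchymal markers below, VIM (5.92 ± 0.39 in HA22T siControl) weighed most on the HA22T side. RBP4 was not well above background on any HA22T siControl array. Of 4 counted fibroblast or mesenchymal markers 2 were called lower in PLC5, VIM and ZEB1, and FN1 was called higher, and the summed level of the 4 with a value on every array was 54.4 to 85.3 in HA22T siControl and 15.6 to 22.6 in PLC5 siControl. Of the enterocyte markers, VIL1 was above background in PLC5 and not in HA22T, and FABP2 in neither line, and the summed level was 0.00786 to 0.0198 in HA22T siControl and 1.45 to 2.00 in PLC5 siControl. Of 2 counted biliary markers SOX9 was called higher in PLC5 (3.22) and KRT7 was not called (−0.43), and EPCAM was not counted. Of 2 counted endothelial markers PECAM1 was called higher (5.41) and CDH5 was not called (0.32), and KDR was not counted. Of 3 macrophage or blood markers CD14 was called lower (−3.86), and PTPRC (0.06) and CD68 (1.19) were not called. The part of these differences in the apolipoprotein levels was not tested.

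**Figure D5:**
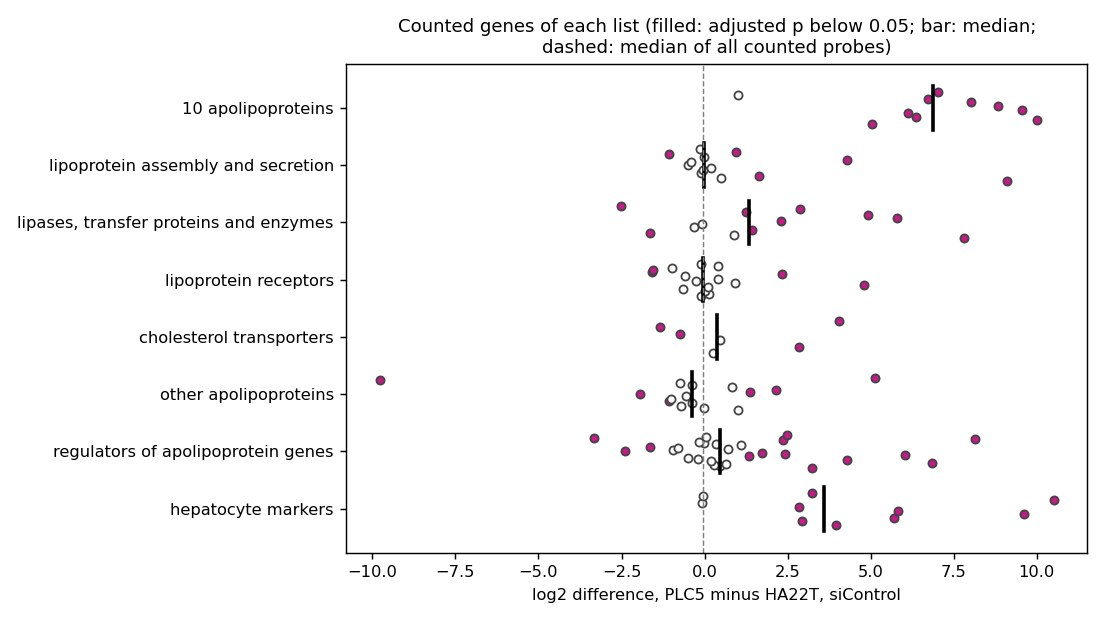
Log2 difference with siControl, PLC5 minus HA22T (horizontal axis), of every counted gene of the members, the 6 pathway lists and the hepatocyte markers. Filled points had an adjusted p below 0.05, bars are list medians and the dashed line is the median of all counted probes. The members lie to the right with a median of fitted values of 6.88, and the point furthest to the left is SAA1 at −9.77.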

How the data were processed

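RNA of 12 samples was labeled in 1 colour, hybridized to whole-transcriptome Agilent arrays and read with Feature Extraction 10.5.1.1, per the labels. The authors deposited, for each array, spot intensity that the software had background-subtracted, its flags (here of unit other), and a table of log2 values whose 75th percentile was 0.001 to 0.004 and whose median was −2.71 to −2.46 on each array. The deposited log2 table was used as an alternative only. Levels were computed as log2 of the processed intensity minus the array's 75th percentile over all spots that are not controls. Non-uniform spots were left out, as in the study's methods, and spots of a probe were averaged. Each gene's level is that of its brightest probe. Of 50599 probes, 28170 matched 1 symbol of RefSeq (GRCh38.p14) through their transcript and 22429 matched none. The 4 groups were fitted together with limma 3.58.1 (R 4.3.3), with Benjamini-Hochberg adjustment over all counted probes and a threshold of 0.05, and tested on simulated data. Where 1 group was not well above background, the fold is a lower bound, computed against the higher of the probe's own level and the faintest level above background on each array. Members, lists and tests were chosen with earlier results of these data known. From each pathway list the text names the 3 genes with the largest siControl line difference among those called with both siRNAs, and any gene called after siGALNT1, and a few other genes of the lists were chosen after their values were seen. Same-numbered arrays of HA22T siControl and siGALNT1 deviated together (correlations of 0.549, 0.403 and 0.43 over 22277 probes). The numbers were therefore read as pairs there, although the labels state no pairing. Those of PLC5 (0.706, −0.0235 and 0.164) did not deviate together at every number. Nor did those across lines, with siControl (0.352, 0.345 and −0.0448) or siGALNT1 (0.147, 0.0448 and −0.287). The number of arrays limits the precision. A few genes of the lists are counted but not reported here by name. Alternatives were the background correction, normalization, filters, replicate or slide blocks, the t-test and leaving out each array.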

Additional observations from a re-analysis of the deposited data

How the results depend on the processing

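The count of members called between the lines was 9 with either siRNA, and it stayed at 9 under every alternative run but 2: with a filter for probes above background on all 6 arrays it was 4 with siControl and 2 with siGALNT1, because fewer members were then tested, and with the replicate block it was 10 with siControl. Leaving out any single array left 9 in both. No member was called after siGALNT1, or in its difference between the lines, under any alternative run. The replicate block changed no other call of a member. All line differences of members kept their direction. With normexp the linear fold between the lines was smaller by over 1.5 times for the members faint in HA22T. The log2 differences with siControl and siGALNT1 were then 9.08 and 9.10 for APOA2, 8.21 and 8.40 for APOB and 6.17 and 5.95 for APOC1. They were 5.14 and 4.82 for APOC2, 4.64 and 4.70 for APOC3 and 4.10 and 4.10 for APOH. Some small siGALNT1 differences, none of them called, changed sign. With normexp background correction they were 0.0517 (APOA1), 0.033 (APOA2), 0.098 (APOB), −0.048 (APOH) and −0.075 (APOM) in HA22T and −0.023 (APOA1) in PLC5. With quantile normalization they were 0.11 (APOA1), −0.65 (APOC3) and −0.087 (APOH) in HA22T and 0.012 (APOM) in PLC5. APOM in HA22T was −0.049 with median scaling and −0.00242 in the deposited table. APOA1 in HA22T was 0.038 in the deposited table, 0.022 with non-uniform spots kept, 0.053 without population outlier spots and 0.18 as the mean over its probes, by which APOM in PLC5 was 0.026. With a floor at the faintest level above background, APOA2 and APOB in HA22T were 0.38 and 0.41, and the difference of the APOB change between lines was −0.15. The percentile without flagged spots and the use of PLC5 arrays of the first slide alone were chosen after seeing the data. With the former APOA1 in HA22T was 0.12. With the latter, the PLC5 values were −0.12 (APOA1), −0.021 (APOA2), −0.13 (APOA4), −0.14 (APOC3), −0.0196 (APOE) and 0.12 (APOH). Leaving out single arrays gave, in HA22T, −0.15 to 0.14 (APOA1), −0.83 to 0.34 (APOA2), −0.40 to 0.043 (APOB), −0.11 to 1.95 (APOC1), −0.094 to 0.43 (APOC3), −0.039 to 0.97 (APOH) and −0.14 to 0.18 (APOM). In PLC5 it gave −0.12 to 0.33 (APOA1), −0.055 to 0.38 (APOA2), −0.18 to 0.55 (APOA4), −0.051 to 0.22 (APOC1), −0.36 to 0.16 (APOC2), −0.12 to 0.45 (APOC3), −0.45 to 0.43 (APOH) and −0.17 to 0.25 (APOM), and the difference of the APOC1 change between lines was −1.85 to 0.20. The cause of these shifts was not tested. The line difference of GALNT1 with siControl was 0.36 with slide as a block. Over all probes, 8365 and 8406 were called between the lines, 3106 and 3135 with PLC5 arrays of the first slide alone, 4111 in the siGALNT1 comparison by the t-test, 5287 there with only its 6 arrays and 5231 there with the filter on all 6 arrays. After siGALNT1 1 probe was called in HA22T (0 to 3 under the alternatives) and 0 in PLC5 (0 to 2). Median scaling moved the median of all probes in the siControl line comparison from −0.04 to −0.15, and a percentile without flagged spots that of the siGALNT1 line comparison from −0.10 to −0.32. The methods name a t-test for other assays and no test for the arrays. That t-test called 9 and 9 members between the lines and 0 after siGALNT1 in either line after adjustment, and 10, 9, 0 and 0 at an unadjusted p below 0.05. That test and the fit of only 6 arrays were not run for the difference between lines. A faint HA22T signal limits the line differences of APOA2, APOB, APOC1, APOC2, APOC3 and APOH.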
